A study of Caligus rogercresseyi with 6 samples.

Results

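The adult male of the sea louse Caligus rogercresseyi was set against the chalimus by RNA-seq, to describe which transcripts were gained and lost between the attached larva and the adult male. Sea lice are parasitic copepods that feed on the skin and mucus of fish. The copepodid is the free-swimming infective larva, and the chalimus that follows is tethered to the host by a frontal filament. After the chalimus moults the louse becomes a mobile adult, and adult males transfer sperm to females in spermatophores, while adult females make yolk and carry egg strings. These transitions involve moulting of the chitinous cuticle and maturation of the germ line.

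Whole adult males, labelled wild type and adult, formed 1 library. Whole chalimi, also labelled wild type, formed the other, and the labels do not give their sex. Both came from pools of lice from farmed Atlantic salmon, and the number of animals in a pool is not stated. Adult females, copepodids and eggs, all wild type and also 1 pooled library each, were used to place the contigs that differed. There were therefore no replicates, no test was possible for any comparison, and no p-value is given. The spread between pools is unknown, so every difference below is between libraries.

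The unit of measurement was the transcript contig, an assembled stretch of transcript sequence. Of 44089 contigs in all, 22033 had 50 or more counts in adult male or chalimus and were compared. Of the 22056 left out, 12975 had 0 counts in both. Total counts were 130218357 in adult male and 116318842 in chalimus, and 149426248, 78380827 and 120674263 in adult female, copepodid and egg. The 3 counts that a result of 0 still allows correspond to 0.0230 CPM (counts scaled to the library total) in adult male and 0.0258 CPM in chalimus. The files do not pair contigs with gene names and no sequence was used here, so the contigs carry no function, and 4 are named by identifier. The tissue labels could not be set against marker genes for the same reason.

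A contig counted as higher or lower in adult male when it differed at least 4-fold after scaling by the trimmed mean of M-values (TMM), with 50 or more counts in the higher library. By this rule 783 contigs were higher in adult male, which is 3.55% of those compared, and 2394 were lower, which is 10.9%. In pools of whole animals a smaller amount of a tissue and less RNA per cell cannot be told apart. The other 18856 were neither, and 14042 of them lay within 2-fold. The median log2 ratio of adult male to chalimus over all 22033 contigs was -0.14, with quartiles at -0.90 and 0.51. With total counts that median was -0.33 and with DESeq2 size factors it was 0.03, so directions are read against these small shifts. The lower contigs outnumbered the higher ones under each scaling, with 611 higher and 2644 lower by total counts and 989 higher and 2189 lower by DESeq2 size factors.

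**Figure D1:**
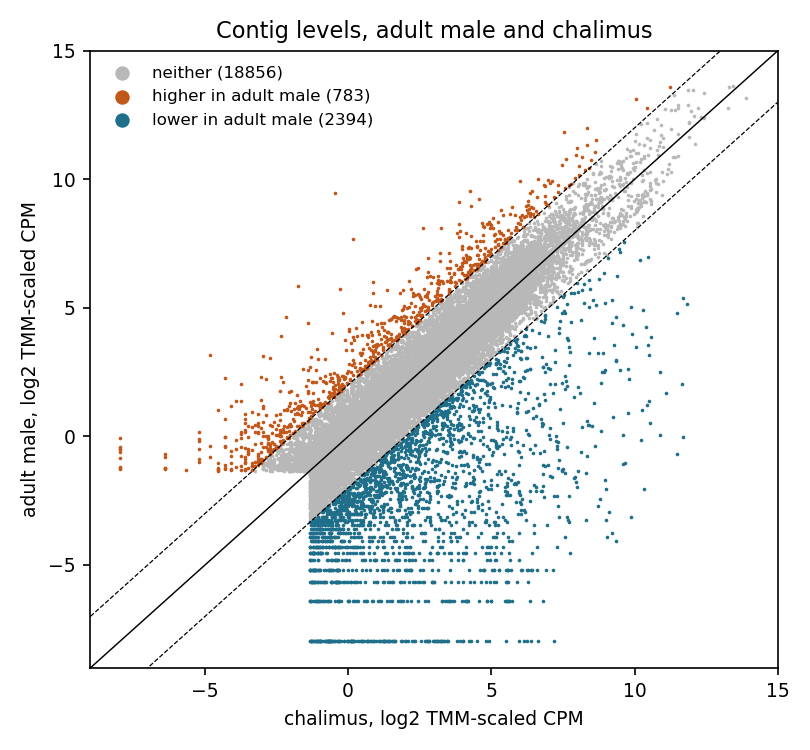
Log2 TMM-scaled CPM in adult male (vertical axis) against chalimus (horizontal axis) for the 22033 contigs compared; each point is 1 contig, the solid line marks equality and the dashed lines mark 4-fold. The 2394 contigs lower in adult male reach far below the lower dashed line, whereas most of the 783 higher contigs lie close to the upper one.

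The gains were moderate and the losses deep. The median fold was 5.88 among the higher contigs (quartiles 4.63 and 8.79) and 14.0 among the lower ones (6.33 and 53.8). A difference of 16-fold or more was reached by 82 higher contigs (10.5%) and by 1116 lower contigs (46.6%). At 64-fold or more there were 9 higher and 554 lower contigs, and at 256-fold or more 1 higher and 268 lower. In these figures a contig with 0 counts in its lower library enters at its bound, computed with 3 counts there. The higher contigs had a median of 1485 counts in adult male and 221 in chalimus. The lower contigs had medians of 21 counts in adult male and 498 in chalimus.

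**Figure D2:**
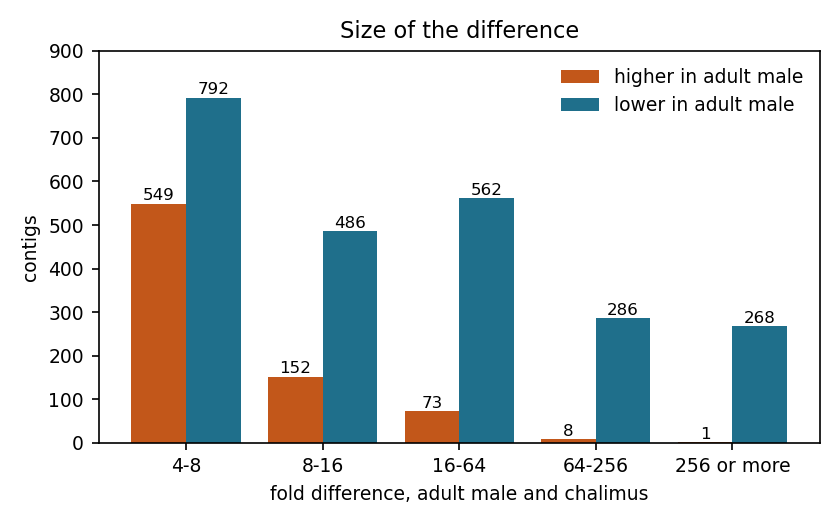
Number of contigs (vertical axis) by fold difference between adult male and chalimus (horizontal axis), with contigs higher in adult male beside contigs lower in adult male and contigs at 0 counts entered at their bound. Higher contigs fall off from 549 at 4- to 8-fold to 1 at 256-fold or more, while 268 lower contigs remain in that last class.

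Counts of 0 were mostly on the male side. Of the lower contigs, 148 (6.18%) had 0 counts in adult male, with between 51 and 18699 counts in chalimus, and they were at least 14.9-fold to at least 5454-fold lower. Of the higher contigs, 9 (1.15%) had 0 counts in chalimus, with between 52 and 120 counts in adult male, and they were at least 15.5-fold to at least 35.7-fold higher. Those 9 were thus all weakly counted. Among the 148, 28 had 0 counts in adult female, copepodid and egg as well, as did 139 (0.631%) of all contigs compared. The rule calls every compared contig with 0 counts in adult male or in chalimus. The same 148 were therefore 0.672% of all contigs compared, and the same 9 were 0.0408%.

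The contigs that differed held a sizeable part of each library. Higher contigs took 11.7% of the adult male counts and 2.05% of the chalimus counts. Lower contigs took 0.436% of the adult male counts and 13.1% of the chalimus counts. Few contigs carried much of each set. Among the higher contigs 10 held 39.9% of the male counts of the set, and 19 (2.43% of the set) reached 50% of them. Among the lower contigs the top 10 took 22.4% of what the set had in chalimus, and 44 (1.84% of the set) reached 50%.

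The higher contig with the largest FPKM in adult male (FPKM is the authors' level per contig length and library) was GAZX01006047, of 635 nt. It stood at 18867 FPKM in adult male (1560614 counts) and 4163 FPKM in chalimus (307741 counts). It was 5.14-fold higher in adult male with TMM scaling (95% exact counting interval 5.12 to 5.16). Elsewhere it was abundant in adult female, at 11644 FPKM, at 0.925 FPKM in egg, and listed at 0 counts in copepodid, where a 0 means only 0 in the table.

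The next was GAZX01027607, of 1089 nt, at 6298 FPKM in adult male (893476 counts) and 1402 FPKM in chalimus (177696 counts). It was 5.10-fold higher (5.07 to 5.12). Its levels were 2095 FPKM in adult female, 62.8 FPKM in copepodid and 2.10 FPKM in egg. Both contigs thus already stood above 1000 FPKM in chalimus and were low in egg.

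The lower contig with the largest FPKM in chalimus was GAZX01031613, of 618 nt. It had 1.54 FPKM in adult male (124 counts) and 5904 FPKM in chalimus (424747 counts), and was 3366-fold lower in adult male (2835 to 4063). It was lower still in adult female, at 0.216 FPKM (20 counts), and stood at 229 FPKM in copepodid and 3.37 FPKM in egg.

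GAZX01017888, of 606 nt, followed, at 44.2 FPKM in adult male (3490 counts) and 5210 FPKM in chalimus (367543 counts). It was 104-fold lower in adult male (100.5 to 107.5), with 4.05 FPKM in adult female, 621 FPKM in copepodid and 52.1 FPKM in egg. These contigs were high in chalimus, intermediate in copepodid and low in both adults.

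The 10 contigs with the largest FPKM of each direction followed these examples only in part. The 10 higher ones spanned 2069 to 18867 FPKM in adult male and 59.6 to 4163 FPKM in chalimus, and their folds ran from 4.08 to 39.3. In adult female they ranged from 3.20 to 11644 FPKM, and 6 of the 10 were below their chalimus FPKM there. The 10 lower ones spanned 0.740 to 46.3 FPKM in adult male and 2141 to 5904 FPKM in chalimus, with folds from 40.8 to 4512. In adult female none of these 10 exceeded 7.19 FPKM, all were between 68.4 and 980 FPKM in copepodid, and all 10 were higher in copepodid than in egg. These 10 losses by FPKM were thus similar in pattern across the 5 libraries, whereas the 10 gains were not. FPKM ranks contigs per length, and not every abundant loss had this pattern. The lower contig with the most counts in chalimus, 3.04% of those of the set, was outside the 10. It stood at log2 TMM-scaled CPM of 11.8 in chalimus, 15.3 in adult female and 2.57 in copepodid.

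The positions of the differing contigs in adult female, copepodid and egg were described next. Adult male and chalimus chose the contigs, so positions relative to them are a description, and only the order of the other 3 libraries among themselves is free of that choice. Higher contigs had a median of 11.7 TMM-scaled CPM (counts over the TMM-scaled library total) in adult male and 1.72 in chalimus, and medians of 0.997 in adult female, 0.348 in copepodid and 0.301 in egg. Lower contigs had a median of 0.170 in adult male and 3.88 in chalimus, and medians of 0.550 in adult female, 1.60 in copepodid and 1.17 in egg. All contigs compared had medians between 4.02 (copepodid) and 6.75 (chalimus).

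**Figure D3:**
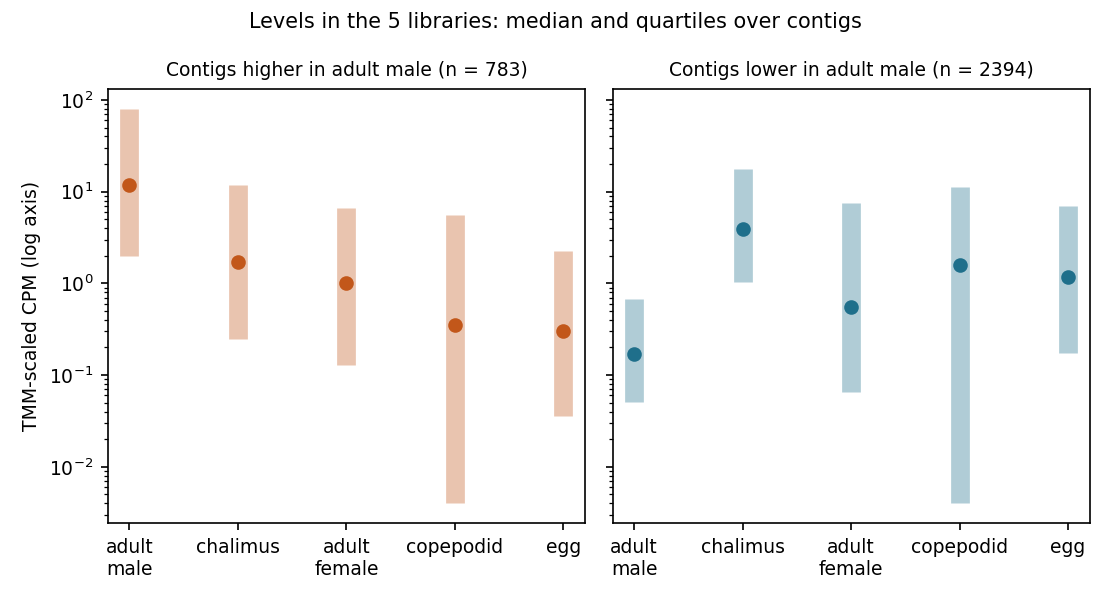
TMM-scaled CPM (vertical log axis) in each of the 5 libraries for the contigs higher in adult male (left) and lower in adult male (right); dots are medians and bars span the quartiles over contigs, not an error between animals. The higher contigs are below their male median in every other library. The lower contigs have medians of 1.60 in copepodid and 1.17 in egg, against 3.88 in chalimus. Contig by contig, copepodid was not above egg at the median, with a log2 ratio of -0.10 for the lower contigs and -0.50 for all contigs compared.

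Between adult female and egg, which the rule did not use, the 2 sets went opposite ways. The median log2 ratio of adult female to egg was 1.11 for the higher contigs, -1.05 for the lower contigs and 0.08 for all contigs compared. At least 4-fold more in adult female than in egg was seen for 38.8% of the higher contigs, 27.3% of the lower ones and 13.3% of all. At least 4-fold less in adult female was seen for 10.1%, 41.4% and 16.4% in the same order of sets. The lower contigs thus had larger shares than all contigs in both directions.

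Among adult female, copepodid and egg, the highest level was in adult female for 47.4% of the higher contigs, against 43.4% of all contigs compared. It was in copepodid for 30.8% of them, against 28.1%, and in egg for 17.4%, against 27.9%. The share for adult female rested on contigs with 0 copepodid counts. Over the higher contigs counted in copepodid it was 33.7%, against 41.4% of all such contigs. For the lower contigs the highest of the 3 was copepodid in 37.1%, adult female in 34.6% and egg in 26.0%. Among contigs counted in copepodid, that library was the highest of the 3 for 53.4% of the 451 higher and 51.7% of the 1717 lower contigs, against 33.9% of all 18303, so this order did not set the directions apart.

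A contig was called near in another library when it lay within 4-fold of the higher of adult male and chalimus, or above it. Of the higher contigs 33.2% were near the male level in adult female, 26.1% in copepodid and 18.0% in egg. Of the lower contigs 44.1% were near the chalimus level in adult female, 49.4% in copepodid and 51.6% in egg. All contigs compared were near in 74.7%, 63.7% and 76.0%. The shares of both differing sets were below those of all contigs in each of the 3 libraries, which their choice for 1 high library favours.

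**Figure D4:**
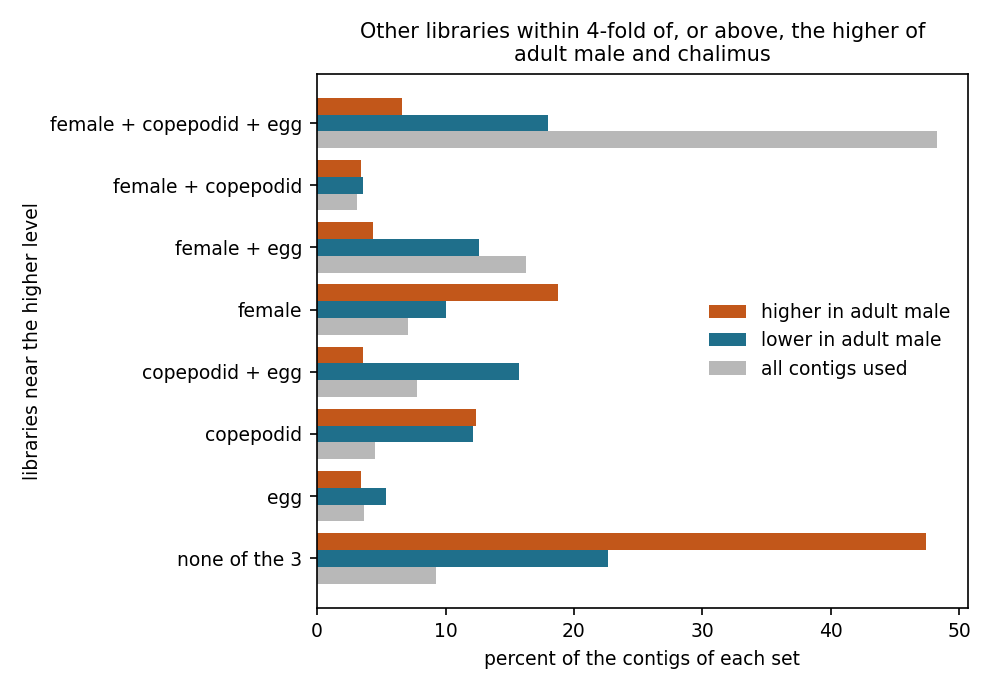
Percent of contigs (horizontal axis) by the set of other libraries in which the contig was near the higher of adult male and chalimus (vertical axis), for contigs higher in adult male, contigs lower in adult male and all contigs compared. Near in none of the 3 is the commonest pattern of the higher contigs, at 47.4%, whereas near in all 3 is the commonest over all contigs, at 48.2%.

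The largest group of gains was near the male level in none of the 3 other libraries. In 371 of the higher contigs (47.4%) adult female, copepodid and egg were all more than 4-fold below the male level. Near in none of the 3 held for 9.26% of all contigs compared, which were not chosen for a difference. This group held 6.79% of the adult male counts and 1.10% of the chalimus counts, with medians of 30.1 and 4.37 TMM-scaled CPM. Its contigs were thus under the male level elsewhere but not always low. It held 0.292% of the counts in adult female, 0.289% in copepodid and 0.156% in egg. Within it 47 contigs had 0 counts in adult female and 217 had 0 counts in copepodid. Among all 783 higher contigs, 35 (4.47%) had 0 counts in adult female, copepodid and egg together, against 56 (2.34%) of the lower and 139 (0.631%) of all contigs compared, and copepodid zeros enter each count.

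A smaller group of gains was near the male level in the other sex too. This held for 260 higher contigs (33.2%), whereas 74.7% of all contigs compared were near in adult female. Adult female was the only near library of the 3 for 147 of the 260 (18.8% of the higher contigs, against 7.11% of all). The 260 held 3.77% of the adult male counts and 0.724% of the chalimus counts, with 1.94% in adult female, 0.0994% in copepodid and 0.141% in egg. Most of this was in few contigs, since 10 of the 260 took 80.2% of the male counts of the group. A further 97 higher contigs (12.4%, against 4.53% of all contigs compared) were near in copepodid alone. Near in all 3 were 52 (6.64%, against 48.2% of all), so that chalimus was the low library for those.

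The losses split by the level in adult female. In 1338 lower contigs (55.9%) adult female was also more than 4-fold below chalimus, and in 1056 (44.1%) it was near chalimus or above. The comparisons of each sex with chalimus share the chalimus library, so no overlap between them is tested. The 1056 held 0.143% of the adult male counts and 2.54% of the chalimus counts, but 20.8% of the adult female counts. Their median was 0.209 TMM-scaled CPM in adult male, 2.92 in chalimus and 9.65 in adult female. Their top 10 took 67.9% of their female counts. In egg they held 3.92% of the counts, and in copepodid 1.17%.

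Of the 1338 contigs low in both sexes, 667 were near the chalimus level in copepodid. Their share of counts was 0.219% in adult male and 5.61% in chalimus, with 5.75% in copepodid, 0.0661% in adult female and 1.60% in egg. The like shares in copepodid and chalimus follow from how these 667 were chosen. Of them, 376 were near in egg too (15.7% of the lower contigs, against 7.82% of all). The other 291 were not (12.2%, against 4.53%). Contigs under in adult female were also split in this way over all contigs compared. Of these, 1722 were near in copepodid and egg, 997 in copepodid alone, 811 in egg alone and 2040 in none. The share near in copepodid was thus much the same there as among the 1338, and is not particular to the losses. A separate group of 542 lower contigs (22.6%, against 9.26% of all) was near in none of the 3 and held 0.0627% of the adult male counts and 4.86% of the chalimus counts. In that group 159 contigs had 0 counts in adult female, 335 in copepodid and 107 in egg. Conversely, 430 lower contigs (18.0%, against 48.2% of all) were near in all 3, so that adult male was the low library for those.

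The deepest losses differed from the shallow ones in how often the other libraries were near the chalimus level. At 4- to 8-fold lower, 59.0% of the contigs were near the chalimus level in adult female, 58.1% in copepodid and 73.7% in egg. At 256-fold or more these figures were 17.5%, 37.7% and 15.3%. The highest of the 3 was copepodid for 30.9% of the first class and 64.6% of the last. By share of counts the order was another. The last class held 10.5% of the adult female, 1.83% of the copepodid and 0.817% of the egg counts. The first class held 1.99%, 1.93% and 1.49%. The contigs of the last class were also more abundant, with a median of 42.9 TMM-scaled CPM in chalimus, against 2.20 in the first class, so the size of the loss and the chalimus level moved together. The part of the chalimus level in this order was not tested.

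**Figure D5:**
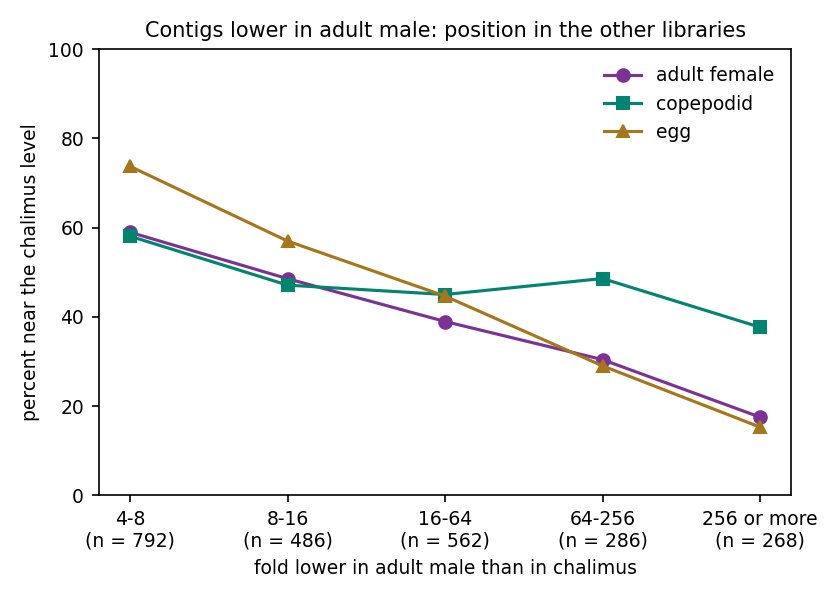
Percent of the contigs lower in adult male (vertical axis) that were within 4-fold of the chalimus level, or above it, in adult female, copepodid and egg, by fold loss (horizontal axis, with the number of contigs). Egg falls from 73.7% in the first class to 15.3% in the last, and copepodid from 58.1% to 37.7%.

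Both sets held many contigs with 0 counts in the copepodid table. There were 332 among the higher contigs (42.4%), 677 among the lower (28.3%) and 3730 among all compared (16.9%). The excess was also present where counts were high. Among contigs with 1000 or more counts in adult male or chalimus, 32.2% of the higher, 13.2% of the lower and 6.04% of all had 0 copepodid counts. In adult female the matching figures were 6.31%, 4.80% and 0.925%. Of the total behind the copepodid FPKM, 1.08% was not in the table, and 0 counts there means 0 in the table.

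The contigs that differed were shorter at the median than those that did not. The median length was 1224 nt for the higher contigs and 992.5 nt for the lower ones, against 1586 nt for the contigs that were neither. Of the 1192 contigs under 500 nt, 5.45% were higher and 29.0% were lower in adult male, against 2.44% and 5.65% of the 7506 contigs of 2000 nt or more. Shorter contigs also carry fewer counts at one level. Of contigs with at least 50 but under 200 counts in the higher library 3.75% were higher and 16.9% lower, and of those with 1000 or more 3.81% were higher and 7.96% lower. The parts of length and of count in these shares were not tested.

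Contigs with consecutive identifiers often differed together. Of the higher contigs 229 (29.2%) had a neighbour in identifier that was also higher, whereas 4.24% of the other contigs compared stood beside a higher one. Of the lower contigs 1053 (44.0%) had a lower neighbour, whereas 10.3% of the other contigs stood beside a lower one. The 783 higher contigs formed 640 runs of consecutive identifiers, and the 2394 lower contigs formed 1719. Numbers of contigs are therefore not numbers of genes, and whether neighbours are pieces or variants of one transcript was not tested.

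The longest runs, picked out after their values were seen, showed distinct courses. A run of 21 lower contigs had a median of 0.0980 FPKM in adult male and 18.9 FPKM in chalimus, with 0.0780 FPKM in adult female, 18.4 FPKM in copepodid and 2.72 FPKM in egg. A run of 20 lower contigs had a median of 0.0315 FPKM in adult male and 43.1 FPKM in chalimus, and 8 of its contigs had 0 counts in copepodid and 11 had 0 counts in egg. Its copepodid median was 0.0785 FPKM, but single contigs of it reached 410 FPKM in copepodid and 47.1 FPKM in egg, and the highest in chalimus was 488 FPKM. The first run thus had like FPKM medians, without TMM scaling, in both larval stages. Its contigs ranged from 0.684 to 905 FPKM in chalimus and from 0.937 to 141 FPKM in copepodid. Both runs were thus uneven in copepodid. The longest run of higher contigs, with 9 members, had medians of 2.26 FPKM in adult male, 0.476 FPKM in chalimus and 2.02 FPKM in adult female, and 0 counts in copepodid for all 9. The next, with 8 members, had a median of 1.82 FPKM in adult male and 0.252 FPKM in chalimus, and at most 0.0100 FPKM in adult female.

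On both sides of the limit of 50 counts the shares that differed were close. Of 750 contigs with 40 to 49 counts in the higher library, 3.60% were at least 4-fold higher in adult male and 18.7% at least 4-fold lower. Of 624 contigs with 50 to 59 counts, 4.81% were higher and 18.4% lower.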

How the data were processed

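RNA-seq counts of whole-animal pools were used, with 1 library per stage or sex and no replicates. The authors deposited whole-number counts per contig, not normalised, and FPKM rounded to 3 decimals, per the file headers and the values. Libraries were prepared by standard Illumina procedures, per the labels' protocols; the sources used here do not give the aligner, the counting tool or the build, nor how reads matching several contigs were counted.

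Counts were scaled in edgeR 4.0.16 (R 4.3.3) by TMM across all 6 files, and 0.5 counts per library, in proportion to its size, were added before log2 ratios. TMM-scaled CPM use the scaled total; shares of counts use the plain total. Contig lengths were recovered from counts and FPKM, and came out whole within 0.05 nt for 100% of contigs above 300 FPKM. Intervals of ratios are exact (Clopper-Pearson, 95%) and cover counting error only, since reads carry no molecular identifiers. A fold against 0 counts is a bound with 3 counts in that library, the lowest over TMM, total-count and DESeq2 1.42.0 scaling. The 4-fold rule and the counting intervals were checked on simulated counts. These held counting error only, without spread between pools, so the check cannot show how the rule behaves under such spread.

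The adult file of unstated sex equals the female plus male totals (difference of 0 counts) and served only in the scaling and as a recount. Contigs were named by a rule: the 2 of each direction with the largest FPKM in the higher library. The comparison, its contigs and the rules were chosen with earlier results of these data known. Alternatives covered scaling, fold, minimum count, added count, counting interval and recount.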

Additional observations from a re-analysis of the deposited data

Results flagged for a closer look

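The adult file of unstated sex entered only the scaling and the recount. It held 2 contigs over 3 counts that had 0 counts in both adult female and adult male. They had 4 and 7 counts there, and neither was among the contigs compared. In the same file 9 of the 148 contigs with 0 counts in adult male had more counts than in adult female, by over 3 counts. The excess was between 4 and 66 counts, so a count of 0 in adult male was not stable to recounting for these 9. No other value met the criteria for a closer look, since each group had 1 sample.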

How the results depend on the processing

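No paired analysis was possible because each group had 1 library. Of the 6 summary results, both counts of contigs stayed within 1.5 times under every scaling, count minimum, added count and the counting interval, and lower contigs outnumbered higher ones throughout. At 2-fold there were 2962 higher and 5029 lower contigs, holding 38.0% of the adult male and 24.7% of the chalimus counts. At 8-fold 234 were higher, and the shares were 4.23% and 11.6%. Both changes follow from the threshold. Contigs stable to within 1% on recounting, a smaller set, left 430 higher and 1378 lower, with 11.3% of the adult male and 9.08% of the chalimus counts.

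The share of adult male counts in the higher contigs and of chalimus counts in the lower contigs was 10.2% and 13.7% by total counts, 14.5% and 12.6% under DESeq2 scaling, and 14.4% and 12.7% with TMM over these libraries alone. With the counting interval beyond 4-fold it was 11.5% and 12.9%, with 200 counts 11.72% and 13.04%, and with 10 counts the chalimus share was 13.13%.

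The share of lower contigs highest in copepodid among the 3 other libraries was 28.9% by total counts (all contigs 15.5%), 39.1% under DESeq2 scaling (29.8%), 32.8% at 2-fold and 40.1% at 8-fold (28.1%), 31.9% with 10 counts (27.6%) and 42.0% with 200 counts (27.6%). It exceeded the share over all contigs in each. The share of higher contigs highest in adult female was 51.3% at 8-fold (all contigs 43.4%). With 200 counts it was 48.4% (47.3%), so it was then close to the share over all contigs. Orders among the 3 others without the copepodid zeros were chosen after seeing the data. Adult female was above egg in 64.4% of the higher contigs (all contigs 52.0%). Among contigs counted in copepodid, adult female was highest in 33.7% of the higher ones (41.4%), and copepodid in 53.4% of the higher and 51.7% of the lower ones (33.9%), so the first order turned against the background. The log2 ratios of GAZX01006047, GAZX01027607, GAZX01031613 and GAZX01017888 kept their direction, with ranges of 2.18 to 2.53, 2.17 to 2.52, -11.9 to -11.5 and -6.88 to -6.53.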

Other observations

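Outside the 4-fold rule, 2179 contigs (9.89% of those compared) were 2- to 4-fold higher in adult male and 2635 (11.96%) were 2- to 4-fold lower. The surplus of lower contigs was thus smaller in this range than at 4-fold or more, where 783 were higher and 2394 lower.

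Recounting with both sexes pooled left 54.9% of the higher contigs, 57.6% of the lower contigs and 60.4% of all contigs compared within 1% of the summed female and male counts. The 4 contigs named by identifier each changed by 0 counts.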
